A study of Rattus norvegicus with 56 samples.

Results

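MiR-185-5p is the 5′ strand of the miR-185 hairpin, and it was followed through fetal myocardium, amniotic fluid and maternal serum of a rat model of ventricular septal defect (VSD). It was 1 of 682 microRNAs listed in the 5 deposited tables and was found by its name after removal of the species prefix. It was chosen because its level was lower in VSD myocardium and higher in amniotic fluid of both groups exposed to dimethadione (DMO), so those 3 differences are described here and were not tested. The small RNAs of 56 samples had been sequenced, with 7 samples in each of 8 groups. Dams were Sprague-Dawley rats that received DMO, an antiepileptic metabolite that causes heart defects, or the same volume of distilled water by repeated oral gavage (NC group), and samples were taken on embryonic day 19. The VSD group held DMO-exposed fetuses with a septal defect and without malformed major vessels, and the non-VSD group held DMO-exposed fetuses with an intact septum, so both carried the exposure. All 3 groups were measured in myocardium and amniotic fluid, and serum, taken from the dams, was measured for NC and VSD.

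MicroRNAs are short RNAs that guide the silencing complex to messenger RNAs, mainly through the pairing of bases 2 to 8, the seed. The miR-185 gene lies inside Tango2, beside Dgcr8, whose protein helps to release microRNAs from their primary transcripts, and near Tbx1, a transcription factor of the developing outflow tract. In people this neighbourhood belongs to the region whose deletion causes DiGeorge syndrome, in which heart defects including VSD are common. Targets reported for miR-185 in heart muscle include genes of calcium handling and hypertrophic signalling such as Camk2d and Nfatc3, and in other cells the small GTPases Rhoa and Cdc42.

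The sequence is shown because the seed sets which messages miR-185-5p can pair with and because other listed microRNAs could share reads with it. The mature sequence and the hairpin come from RefSeq on the GRCr8 assembly. The gene lies there on the plus strand of chromosome 11 inside Tango2, and by gene starts Dgcr8 and Mir1306 come next. Capitals mark the seed in the mature sequence and the mature strand, bases 14 to 35, in the 80-base hairpin.
miR-185-5p: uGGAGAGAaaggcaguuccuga
miR-185 hairpin: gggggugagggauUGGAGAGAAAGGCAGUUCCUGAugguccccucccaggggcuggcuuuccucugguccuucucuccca
Of the 682 listed microRNAs, 617 had a RefSeq mature sequence, and no other one had the same bases 2 to 8. A run of 8 or more identical letters was shared with 2 listed microRNAs, written here with the shared run in capitals.
miR-6317: gugaaccuGAGAGAAAGGCuc
miR-3473: ucuagggcUGGAGAGAuggcua
MiR-6317 shared 11 letters but gathered 7 counts over all 21 myocardium samples against 66307 of miR-185-5p. MiR-3473 carried the first 8 letters of miR-185-5p in its own middle, at bases 9 to 16, so its seed differed. It gathered 4390 counts in myocardium and 3484 in serum, against 4975 of miR-185-5p there, but 221695 in amniotic fluid against 4441. Whether reads were split between them cannot be seen in the counts. The forward primer listed for quantitative PCR of this microRNA carried its first 14 letters, in capitals, behind an added tail.
Forward primer: aaccatgTGGAGAGAAAGGCA
The 3′ strand of the hairpin, miR-185-3p, was not analysed here.

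Library totals, the sums of the listed counts, were 1694811 to 9371130 in myocardium, 147609 to 581350 in maternal serum and 78188 to 331787 in amniotic fluid. A count of 0 would allow up to 1.77, 20.3 and 38.4 CPM, that is counts scaled to a library total of 1e6, in the smallest library of each. The labels do not say whether samples of a group came from separate dams, so p-values measure only the spread between these samples. MicroRNAs known from heart and skeletal muscle (8 of 8 listed) summed to 16421 to 154476 CPM in myocardium against 68.6 to 7143 CPM in amniotic fluid. Replicate 2 of the NC group and replicate 1 of the VSD group stood apart in myocardium. Their muscle sums, 16421 and 19916 CPM, were the lowest of the 21 samples, and their sums of 8 epithelial microRNAs, 17532 and 21155 CPM, were the highest. Replicates 4 and 5 of the VSD group followed with epithelial sums of 15649 and 13727 CPM, above 7238 CPM in the next sample. Fold changes, likeness and list values in myocardium are therefore also given without NC replicate 2 and VSD replicate 1, or without these 4 libraries.

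MiR-185-5p was detected in 56 of 56 libraries, with 13 to 8827 counts. By group medians its level ran from 1100 CPM in VSD serum, 948 CPM in non-VSD amniotic fluid, 836 CPM in NC serum, 640.2 CPM in NC myocardium, 565 CPM in VSD amniotic fluid, 411 CPM in non-VSD myocardium and 388 CPM in NC amniotic fluid down to 324 CPM in VSD myocardium. The ranges of 7 of 7 neighbouring groups in this order overlapped. Of all 28 pairs of groups, 3 did not overlap, and each set serum above myocardium. These were NC serum and VSD serum against VSD myocardium, and NC serum against non-VSD myocardium. Libraries were made with QIAseq for amniotic fluid and TruSeq for myocardium and serum, and sequenced on NovaSeq and HiSeq instruments in that order. Between amniotic fluid and the others, kits, instrument and sample type therefore cannot be told apart. Serum and myocardium, which made up the 3 pairs that did not overlap, shared the TruSeq kit. Their extraction kits differed, and myocardium came from fetal wax blocks but serum from dams. Those differences cannot be told apart from sample type either. Within its library, miR-185-5p held a median rank of 61 and 65 in VSD and NC serum, 85 to 133 in the myocardium groups and 106 to 146 in the amniotic fluid groups, counted from the most abundant microRNA.

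**Figure D1:**
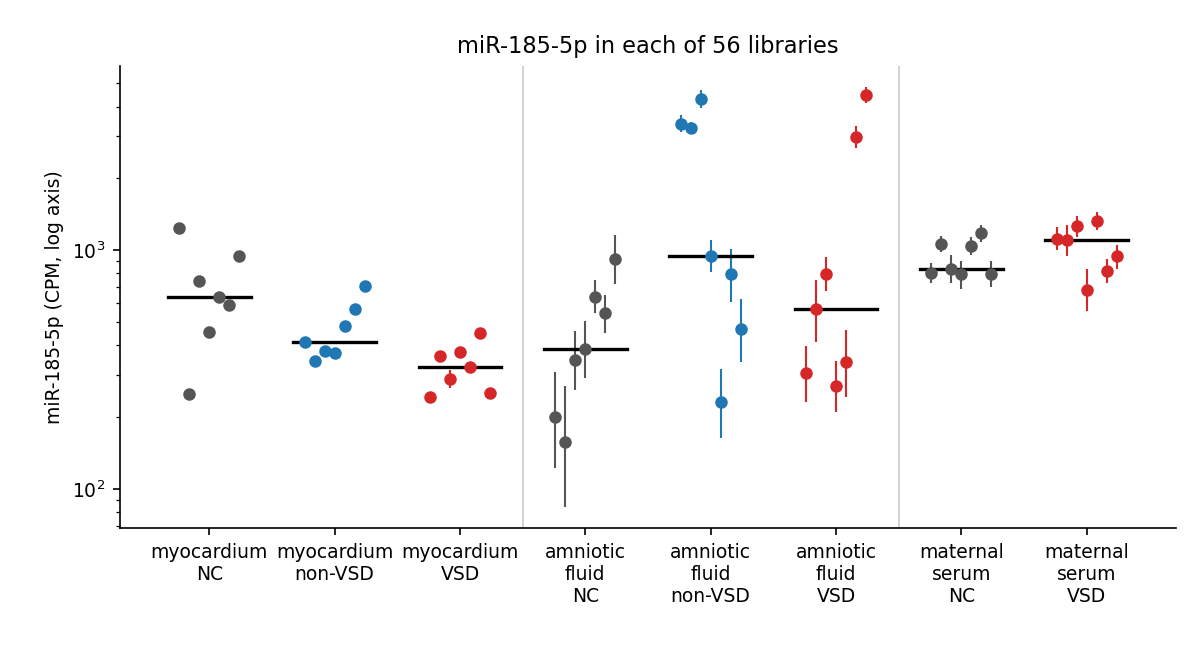
Level of miR-185-5p in each of the 56 libraries, in CPM on a log axis. Each point is 1 sample with its exact 95% Poisson counting interval, and black lines are group medians. The 7 VSD myocardium samples lie between 242 and 449.5 CPM, while 2 VSD and 3 non-VSD amniotic fluid samples lie between 2987 and 4485 CPM, above every NC sample.

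The spread of the level differed between the sample types. In serum the coefficient of variation was 17.2% (NC) and 22.4% (VSD), and levels differed by at most 1.94-fold within a group. In amniotic fluid it was 58.4% (NC), 119.7% (VSD) and 87.6% (non-VSD), with an 18.6-fold range in the non-VSD group. Counting error was smaller than these values in each group. Its largest value for any amniotic fluid library was 27.7%, in replicate 2 of the NC group, where 13 counts gave 158 CPM with an exact 95% Poisson interval of 84.1 to 270.0 CPM. In myocardium counting error was at most 4.52%, while the NC group varied by 46.8%, the non-VSD group by 28.1% and the VSD group by 22.5%. Intervals and floors cover counting error only.

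In NC myocardium miR-185-5p lay between 249 CPM (replicate 2) and 1241 CPM (replicate 1), around a median of 640.2 CPM and a mean of 695 ± 325 CPM (SD, n = 7). In VSD myocardium it lay between 242 and 449.5 CPM, with a median of 324 CPM and a mean of 328 ± 73.6 CPM (SD, n = 7). All 7 VSD samples were below the NC median, and the groups overlapped through NC replicate 2, above which 6 of 7 VSD samples lay. The edgeR fit gave a log2 fold change of -1.54 (SE 0.35) on TMM-scaled counts, which is 0.343-fold, a difference that was used to choose the microRNA. Without NC replicate 2 the value was -1.77, and without VSD replicate 1 it was -1.50. Without both it was -1.65 (SE 0.29), and without all 4 libraries that stood apart it was -1.50 (SE 0.32). Scaling by library totals alone gave -1.08. That scaling also moved the median log2 fold change of all 469 tested microRNAs, from -0.047 to 0.32, so that miR-185-5p was 1.50 below the median with TMM and 1.40 below it with library totals.

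The question of whether DMO exposure without a septal defect went with a different level was addressed by the non-VSD group, which shares its NC samples with the comparison above. MiR-185-5p lay between 343 and 706 CPM in non-VSD myocardium, with a median of 411 CPM and a mean of 466 ± 131 CPM (SD, n = 7). Of these 7 samples, 6 were below the NC median and none was below every NC sample. The log2 fold change was -0.86 (SE 0.34, 95% interval -1.58 to -0.15), and it did not pass edgeR's quasi-likelihood test after Benjamini-Hochberg adjustment over 456 microRNAs (adjusted p = 0.173), which 1 of the 456 (0.219%) passed. At 0.550-fold it also missed the study's threshold of an unadjusted p under 0.05 with at least a 2-fold change, which 4.17% of all tested microRNAs met. A two-sided exact permutation test over 3432 groupings gave p = 0.0857, or 0.171 adjusted over the 4 tested comparisons. Without NC replicate 2, the library with the low muscle and high epithelial sums, the value was -1.03 and passed the edgeR test (adjusted p = 0.0376). That library also had the lowest miR-185-5p of the NC group, 249 CPM against 453 CPM in the next, so leaving it out widens the difference. The NC samples also served in the comparisons that chose the microRNA, so this result is not independent of that choice. Scaling by library totals alone gave -0.58, with the median of all microRNAs moving from -0.072 to 0.13.

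VSD myocardium was set against non-VSD myocardium to compare septal defect with intact septum under the same exposure. The VSD samples lay lower, 4 of 7 below every non-VSD sample and 6 of 7 below the non-VSD median, but the ranges overlapped. The log2 fold change was -0.63 (SE 0.32, 95% interval -1.29 to 0.028) and did not pass edgeR's test over 483 microRNAs (adjusted p = 0.439), nor the study's threshold, which 5.18% met. The two-sided exact permutation test gave p = 0.0163, and 0.0653 after adjustment over the 4 comparisons. Without VSD replicate 1 the value was -0.53. Without NC replicate 2 and VSD replicate 1 it was -0.55 (edgeR adjusted p = 0.439), and without the 4 libraries -0.49 (edgeR adjusted p = 0.691). The VSD samples also served in the comparison that chose the microRNA, so this result is not independent of that choice.

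**Figure D2:**
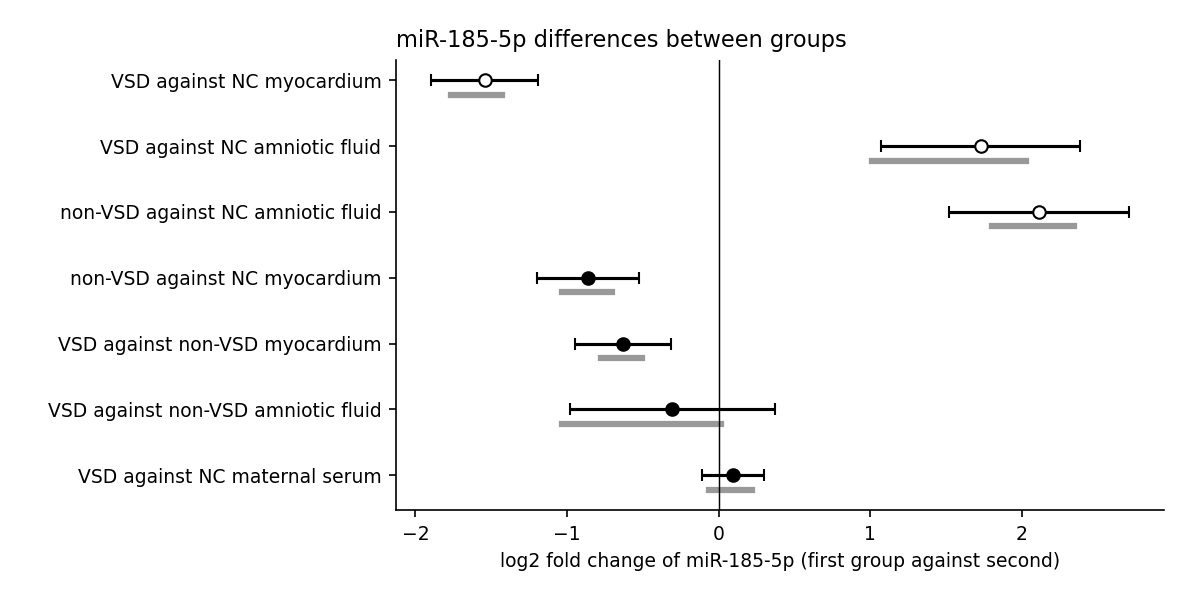
Log2 fold change of miR-185-5p in 7 comparisons, with bars of 1 SE. Open points are the 3 comparisons by which the microRNA was chosen, filled points are the 4 tested ones, and the grey bar under each point spans the values with 1 sample left out in turn. Values run from -1.54 in VSD myocardium to 2.11 in non-VSD amniotic fluid, and the grey bars cross 0 in VSD against non-VSD amniotic fluid and in maternal serum.

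MiR-486, a microRNA abundant in red blood cells, had the pattern most like miR-185-5p in myocardium. Across the 21 samples Spearman's rho between their TMM-scaled log2 CPM was 0.957, and it was 0.932 after group means were removed. Within the groups of 7 it was 1 (NC), 0.857 (VSD) and 0.964 (non-VSD). On library totals alone it was 0.944, again the highest of 482 microRNAs compared. On the TMM scale it was 0.932 without NC replicate 2 and VSD replicate 1 and 0.973 without the 4 libraries, the highest in each case. MiR-486 lay between 1031 and 22164 CPM in the NC group, between 847 and 8105 CPM in the VSD group and between 1617 and 10442 CPM in the non-VSD group. The lowest library of the NC group was replicate 2 and that of the VSD group replicate 1 for both microRNAs. Samples of a tissue share their preparation and scaling, so these values describe likeness only.

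The next 4 by rho in myocardium were miR-3473 (0.908), miR-26a-5p (0.904), miR-3064-5p (0.891) and miR-1839-5p (0.879). The place of miR-26a-5p rested on the scaling. MiR-26a-5p is an abundant microRNA of many tissues, and its mean was 38187 ± 4736 CPM (SD, n = 7) in NC and 35668 ± 4683 CPM in VSD myocardium. With library totals alone its rho fell from 0.904 to 0.386 and its place from the third to 38. TMM factors ranged from 0.630 to 1.39 in myocardium and had a rho of -0.713 to miR-185-5p on library totals, so a factor shared by all microRNAs of a library enters each rho on the TMM scale. MiR-3473, miR-3064-5p and miR-1839-5p had a rho of 0.818, 0.865 and 0.849 without TMM. Without the 4 libraries the rho of these 4 microRNAs was between 0.841 (miR-1839-5p) and 0.917 (miR-26a-5p). At the other end stood miR-455-5p (-0.855), miR-195-5p (-0.849), of the miR-15/16 seed family, and miR-141-3p (-0.832), an epithelial microRNA, with -0.740, -0.830 and -0.744 without TMM.
miR-26a-5p: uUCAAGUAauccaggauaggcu
miR-195-5p: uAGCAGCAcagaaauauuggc
miR-141-3p: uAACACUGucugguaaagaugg
These are shown with the seed in capitals because they mark the ends of the likeness order, and none holds the seed letters of miR-185-5p.

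**Figure D3:**
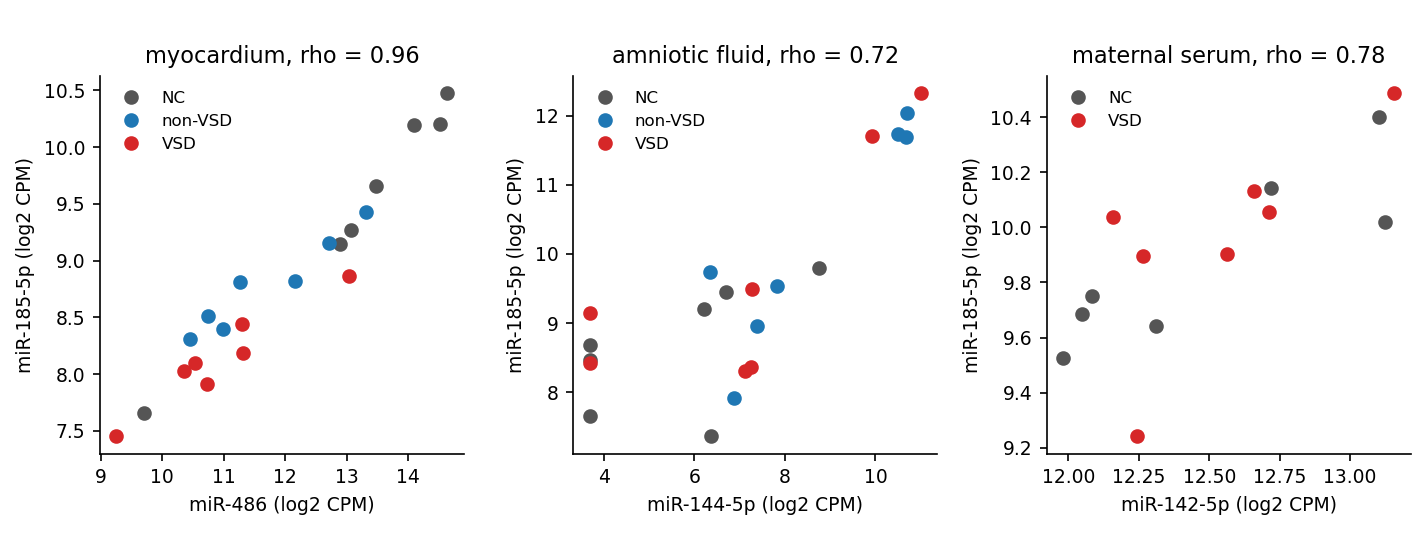
TMM-scaled log2 CPM of miR-185-5p against that of the microRNA with the highest rho in each sample type, with 1 point per sample coloured by group. The points follow 1 line in myocardium (miR-486, 21 samples), fall into an upper set of 5 libraries and a wide lower set in amniotic fluid (miR-144-5p, 21 samples), and scatter more in maternal serum (miR-142-5p, 14 samples).

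Red cell microRNAs moved with miR-185-5p in myocardium. The list held miR-144-3p, miR-144-5p, miR-451-5p and miR-486, the last of which was the nearest microRNA above, and their summed level was 3266 to 73069 CPM in the NC group, 4766 to 24223 CPM in the VSD group and 3051 to 34882 CPM in the non-VSD group. Group medians were 29060, 8905 and 7704 CPM in that order. At the study's threshold 4 of 4 were called lower in VSD against NC myocardium, where 4.26% of all tested microRNAs were called lower. In non-VSD against NC myocardium 3 of 4 were called lower, against 2.41% of all. The median log2 fold change there was -1.61 for the list and -0.072 for all microRNAs. With library totals alone 2 of 4 were called lower, where 4 of all 456 tested microRNAs were. In VSD against non-VSD myocardium the list's median was -0.49, and all 4 values were negative. The rho of miR-185-5p to the list's summed level was 0.884 over the 21 samples, and 0.943 with group means removed. Without NC replicate 2 and VSD replicate 1 the list's median was -2.46 in VSD and -1.82 in non-VSD against NC myocardium. Without the 4 libraries these medians were -2.16 and -1.82. All 4 values were negative in both comparisons and both settings, and rho was 0.861 and 0.890 in that order of settings. The list's median in VSD against non-VSD myocardium was then -0.36 and -0.15. In these bulk samples, fewer cells of a type and less RNA per cell cannot be told apart.

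Over all 21 myocardium samples the other marker lists moved less closely with miR-185-5p than the red cell list did. The rho of miR-185-5p to the summed level was 0.849 for 6 white blood cell microRNAs and 0.575 for the muscle list. It was -0.556 for the 2 strands of endothelial miR-126a and -0.717 for the epithelial list. Without the 4 libraries that stood apart these values were 0.926, 0.343, -0.564 and -0.576. The white cell value was then above the 0.890 of the red cell list. Without NC replicate 2 and VSD replicate 1 it was 0.896, against 0.861 for the red cell list. Epithelial sums were 167 to 17532 CPM in NC, 1910 to 21155 CPM in VSD and 296 to 7238 CPM in non-VSD myocardium, and 8 of 8 epithelial members had positive values in VSD against NC myocardium, with a median log2 fold change of 1.20. In VSD against non-VSD myocardium 8 of 8 were again positive, with a median of 1.61, and 2 were called higher, against 3.93% of all tested microRNAs. In non-VSD against NC myocardium 8 of 8 were negative, with a median of -0.25. The last of these turned without NC replicate 2, when 8 of 8 were positive with a median of 0.82. Without only NC replicate 2 and VSD replicate 1, the epithelial median was 2.20 in VSD against NC myocardium. It was then 1.25 in VSD against non-VSD myocardium, and 8 of 8 were positive in both comparisons. Without the 4 libraries the epithelial median was 0.97 in VSD against NC and 0.051 in VSD against non-VSD myocardium, with 4 of 8 positive in the latter. In VSD against NC myocardium 2 of 6 white cell microRNAs, miR-142-3p and miR-142-5p, were called lower at the study's threshold, with log2 fold changes of -1.81 and -2.55, against 4.26% of all called lower. The strands of miR-150 and miR-223 had values between -0.78 and 0.18, and with library totals alone the list had 3 positive and 3 negative values and a median of -0.052. Summed white cell levels were 540.0 to 3021 CPM in NC, 322 to 1108 CPM in VSD and 361 to 2095 CPM in non-VSD myocardium. Endothelial sums on library totals were 10638 to 16523 CPM in NC, 16153 to 30570 CPM in VSD and 20135 to 29096 CPM in non-VSD myocardium. On that scale all 7 non-VSD samples lay above every NC sample. In the TMM-scaled fit the 2 strands had log2 fold changes of -0.033 and 0.77 in non-VSD against NC myocardium. At the study's threshold 0 of 2 were called there, against 4.17% of all tested microRNAs. With library totals alone 1 was called higher, where 16 of all 456 were. In VSD against NC myocardium 7 of 8 muscle microRNAs had negative values, with a median log2 fold change of -0.47. In VSD against non-VSD myocardium 8 of 8 were negative (median -0.45), and in non-VSD against NC myocardium 4 of 8 (median -0.09). With library totals alone 5 of 8 were negative in VSD against NC (median -0.038). Without the 4 libraries 5 of 8 were negative in both VSD comparisons, with medians of -0.065 and -0.15. The part of red cell, white cell, endothelial, muscle and epithelial RNA in the miR-185-5p differences was not tested.

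The ratio of miR-185-5p to miR-486 was computed within each library. Its median on the log2 scale was -3.81 in NC, -2.82 in VSD and -2.59 in non-VSD myocardium, with ranges of -4.31 to -2.05, -4.17 to -1.805 and -3.89 to -2.15. Against miR-451-5p the medians were -4.69, -4.42 and -3.74. In myocardium miR-185-5p was thus higher relative to both red cell microRNAs, by group medians, in the groups where its own level was lower. All ranges overlapped there, and against miR-451-5p the means were -4.55 ± 0.89 in NC and -4.42 ± 0.48 in VSD (SD, n = 7). In amniotic fluid the medians in NC, VSD and non-VSD were -5.43, -5.55 and -4.94 against miR-486. Against miR-451-5p they were -0.39, -0.035 and -0.63. This ratio was chosen after the values were seen, and it was not tested.

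In NC amniotic fluid miR-185-5p lay between 158 and 921 CPM, around a median of 388 CPM and a mean of 457 ± 267 CPM (SD, n = 7). In the VSD group it lay between 271 and 4485 CPM, with a median of 565 CPM and a mean of 1393 ± 1668 CPM (SD, n = 7). Replicates 6 and 7 of the VSD group, at 2987 and 4485 CPM, lay above every NC sample, and the other 5 lay within the NC range. In the non-VSD group it lay between 232 and 4320 CPM, with a median of 948 CPM and a mean of 1915 ± 1678 CPM (SD, n = 7). Of these samples 4 of 7 lay above every NC sample, replicates 1, 2 and 3 with 3255 to 4320 CPM and replicate 4 with 948 CPM.

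The log2 fold change in amniotic fluid was 1.73 (SE 0.65) for VSD against NC and 2.11 (SE 0.60) for non-VSD against NC, both of which chose the microRNA. Leaving out VSD replicate 7 lowered the VSD value to 1.01, while each non-VSD value with 1 sample left out was between 1.80 and 2.34. Between the VSD and non-VSD groups the log2 fold change was -0.31 (SE 0.67, 95% interval -1.70 to 1.08). It did not pass edgeR's test over 273 microRNAs (p = 0.653, adjusted p = 0.910) or the study's threshold, which 3.3% met, and the two-sided exact permutation test gave p = 0.523 (0.662 adjusted over the 4 comparisons). Its direction turned without non-VSD replicate 3, when it was 0.015, and it was -1.04 without VSD replicate 7. The interval reaches from a 0.309-fold to a 2.12-fold level. Samples of both groups also served in the comparisons that chose the microRNA, so this result is not independent of that choice.

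**Figure D4:**
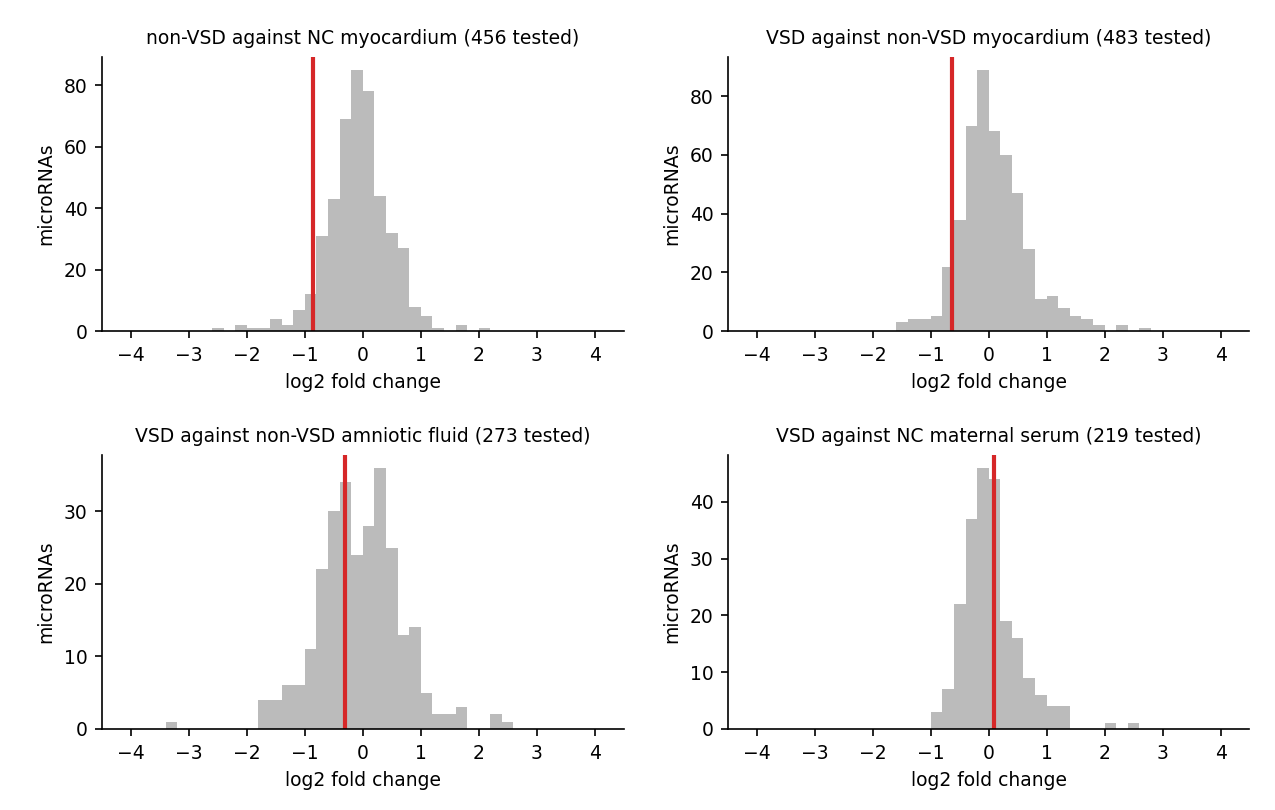
Log2 fold changes of all tested microRNAs in the 4 tested comparisons (grey, number of microRNAs per bin), with miR-185-5p as a red line. In non-VSD against NC myocardium 28 of 456 microRNAs had a lower value than the -0.86 of miR-185-5p, and in maternal serum 86 of 219 had a higher value than its 0.095.

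The summed level of the red cell microRNAs in amniotic fluid was 15338 to 36170 CPM in the NC group, 18210 to 129517 CPM in the VSD group and 26321 to 85934 CPM in the non-VSD group. The 5 libraries with the highest miR-185-5p also had the 5 highest red cell sums, between 68759 and 129517 CPM. The sixth highest sum, 64585 CPM, was that of non-VSD replicate 5, which had the lowest miR-185-5p of its group, 232 CPM, and rho over the 21 samples was 0.392. At the study's threshold 2 of 4 members were called higher in VSD against NC amniotic fluid, where 3.67% of all tested microRNAs were called higher, and 4 of 4 in non-VSD against NC amniotic fluid, where 8.68% were. Endothelial miR-126a summed to 543 to 2026 CPM in NC, 160 to 3448 CPM in VSD and 902 to 4440 CPM in non-VSD fluid, and the same 5 libraries held its 5 highest sums. They also held the 5 highest sums of the white cell list, 14913 to 28311 CPM, against 543.0 to 7005 CPM in the NC group. Over the 21 samples the rho of miR-185-5p was 0.729 to the endothelial sum and 0.684 to the white cell sum. The part of blood and endothelial RNA in the miR-185-5p differences was not tested.

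The microRNAs most like miR-185-5p in amniotic fluid were miR-144-5p (rho 0.722), miR-451-5p (0.718), miR-126a-3p (0.714), miR-190a-5p (0.709) and miR-150-5p (0.670), over 21 samples and 272 microRNAs. The first pair are red cell microRNAs, miR-126a-3p marks endothelium and miR-150-5p marks lymphocytes.
miR-144-5p: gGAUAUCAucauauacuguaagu
miR-451-5p: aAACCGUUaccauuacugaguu
miR-126a-3p: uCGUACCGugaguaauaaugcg
They are shown, seeds in capitals, because their levels followed that of miR-185-5p most closely and their seeds differ from its own. The 5 libraries above 2900 CPM lay apart from the 16 under 1000 CPM, and over those 16 libraries the rho of these 5 microRNAs was 0.318 to 0.403. MiR-144-5p was at 0 in NC replicates 1, 3 and 4 and VSD replicates 2 and 4, and at 861 to 1779 CPM in the 5 libraries that lay apart. MiR-486 had a rho of 0.291 to miR-185-5p in amniotic fluid, against 0.957 in myocardium. Lowest were miR-125a-5p (-0.562), miR-125b-5p (-0.518) and miR-361-3p (-0.510), which were -0.306, -0.156 and -0.306 over the 16 libraries.

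In NC serum miR-185-5p was at 794 to 1177 CPM, around a median of 836 CPM and a mean of 931 ± 160 CPM (SD, n = 7). In dams of the VSD group it was at 684 to 1326 CPM, with a median of 1100 CPM and a mean of 1037 ± 233 CPM (SD, n = 7). The ranges overlapped, and 5 of 7 dams of the VSD group exceeded the NC median. The log2 fold change was 0.095 (SE 0.20, 95% interval -0.33 to 0.52) and did not pass edgeR's test over 219 microRNAs (p = 0.648, adjusted p = 0.876), nor did the two-sided exact permutation test (p = 0.662, also after adjustment over the 4 comparisons). The study's threshold was met by 4.57% of the 219. This comparison shares no sample with those that chose the microRNA. Its interval corresponds to 0.794-fold to 1.44-fold. Without VSD replicate 5 the value was -0.062.

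Likeness in serum followed other microRNAs. The highest values over 14 samples and 218 microRNAs were those of miR-142-5p (0.785), a microRNA of blood cells, miR-146b-5p (0.771), miR-19b-3p (0.771), miR-16-5p (0.697) and miR-674-5p (0.675), which were 0.688, 0.705, 0.600, 0.525 and 0.503 without TMM. The lowest were miR-125a-5p (-0.864), miR-483-3p (-0.763) and miR-99b-5p (-0.749), which were -0.705, -0.560 and -0.420 without TMM. The place of miR-99b-5p moved from 216 to 195 without TMM. MiR-125a-5p thus stood at the low end in both fluids over all samples, but its amniotic fluid value was -0.306 without the 5 libraries that lay apart. The red cell list, at 44094 to 185556 CPM in serum, had a rho of -0.068 to miR-185-5p there. Its members weighed differently by sample type. In the NC group miR-486 had 341149 counts against 2117 of miR-451-5p in serum, and 22372 against 630 in amniotic fluid. In NC myocardium it had 489891 against 981687. The rho values of the list's sum are therefore not alike across sample types.

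MiR-1306 comes directly after Dgcr8 in the annotation's order of protein-coding and microRNA gene starts. Whether it lies inside Dgcr8 was not examined. Its strands are shown to compare a neighbour from the same locus.
miR-1306-5p: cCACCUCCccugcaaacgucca
miR-1306-3p: gACGUUGGcucugguggugaug
MiR-1306-5p was far less abundant in myocardium, at 21.1 ± 10.5 CPM in NC, 14.3 ± 2.40 CPM in VSD and 16.5 ± 2.90 CPM in non-VSD samples (SD, n = 7 each). Its log2 fold change in VSD against NC myocardium was -0.97 (SE 0.27), beside -1.54 for miR-185-5p. In non-VSD against NC myocardium it was -0.56 (SE 0.25) and in VSD against non-VSD myocardium -0.35 (SE 0.23), and neither passed edgeR's test (adjusted p = 0.2499 and 0.483). MiR-1306-3p had values of -0.14, 0.23 and -0.32 in the same order, and with edgeR the last 2 had adjusted p = 0.805 and 0.639. In amniotic fluid miR-1306-5p had values of 1.12 (SE 0.55) for VSD and 0.44 (SE 0.90) for non-VSD against NC. The 5 libraries that were high in miR-185-5p had 112 to 664 CPM of miR-1306-5p, and its highest value, 875 CPM, was in VSD replicate 3, outside those 5. Its rho to miR-185-5p was 0.694 in myocardium (0.559 without the 4 libraries that stood apart), 0.114 in amniotic fluid and -0.591 in serum.

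MiR-185-5p is also on a list of 14 myocardium microRNAs tied to hub genes of a target network, and that list was chosen on these samples, so it is no independent evidence of direction. Of the 10 that could be tested in VSD against NC myocardium, 5 were called lower and 2 higher at the study's threshold. Of all 469 tested microRNAs 6.82% were called. With library totals alone 3 of the 10 were called lower and 2 higher, where 12 and 33 of all 469 were. In non-VSD against NC myocardium the median of the 10 was -0.53 and 7 values were negative, but the median was -0.22 with library totals. Without the 4 myocardium libraries that stood apart, the median of the 10 was -0.999 in VSD against NC, with 6 negative and 4 positive values. Beside the -0.86 of miR-185-5p stood -0.94 (SE 0.65) for miR-142-3p, -0.71 (SE 0.35) for miR-3473 and 0.89 (SE 0.26) for miR-301a-3p, which had edgeR adjusted p = 0.538, 0.308 and 0.0925.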

How the data were processed

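Small RNA libraries of 56 rat samples had been made from wax-embedded fetal myocardium, amniotic fluid and maternal serum. Base calling used bcl2fastq 2.19, and DESeq is named, per the labels' processing notes. The aligner, microRNA annotation and genome build are not given in the sources used here. The authors deposited counts of reads per mature microRNA, unnormalized, which were analysed here. Beside them the deposited tables hold the authors' CPM for amniotic fluid and a normalized signal for myocardium and serum. The columns of that signal sum to 890828 to 1156680, so it was not scaled to the library totals used here. Both served as an alternative. The authors' own comparisons (log2 and linear fold changes, p-values) and group means were not used, and 0 per-sample columns lacked a sample. NC columns occur in 2 tables each and were identical.

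Counts were tested in R 4.3.3 with edgeR 4.0.16 (filterByExpr at 10 counts per sample and 15 in total, TMM, quasi-likelihood test, Benjamini-Hochberg adjustment over all tested microRNAs). Each DMO group was fitted with the NC group, and VSD against non-VSD in a fit of all 3 groups. Levels are CPM on library totals, and likeness is Spearman's rho on TMM-scaled log2 CPM with a prior count of 2. The floor is 3 counts. Exact permutation tests used Python 3.11.15 and scipy 1.17.1, and figures matplotlib 3.10.9. The fits were repeated with limma 3.58.1 on log2(CPM + 1), with DESeq2 1.42.0, on library totals, unfiltered, on the normalized columns, with more or fewer groups, with replicate numbers as a block, and with each sample left out. The likeness on library totals, the likeness without the 5 amniotic fluid libraries that lie apart, list counts on library totals, the fits without the myocardium libraries that stand apart and the ratio to miR-486 or miR-451-5p were added after the data were seen. The edgeR procedure was tested on simulated data. MicroRNAs named were miR-185-5p, those of the same seed or locus, the 5 highest and 3 lowest by rho in each sample type, the marker lists and the study's hub-gene list. The member and the lists were chosen with earlier results of these data known.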

Additional observations from a re-analysis of the deposited data

How the results depend on the processing

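Each of 7 fold changes was recomputed with 1 sample left out (14 fits each) and under 6 or 7 other settings. Leaving out samples gave -1.77 to -1.43 for VSD against NC myocardium, 1.01 to 2.02 for VSD against NC amniotic fluid, 1.80 to 2.34 for non-VSD against NC amniotic fluid, -1.03 to -0.71 for non-VSD against NC myocardium, -0.78 to -0.50 for VSD against non-VSD myocardium, -1.04 to 0.015 for VSD against non-VSD amniotic fluid and -0.062 to 0.22 for maternal serum. The value of -1.03, without NC replicate 2, passed edgeR's test (adjusted p = 0.0376), against 0.173 with all samples and at most 0.335 with another sample left out. NC replicate 2 had the lowest miR-185-5p of its group. The direction turned without non-VSD replicate 3 in amniotic fluid (0.015) and without VSD replicate 5 in serum (-0.062). The causes were not tested.

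Over all microRNAs, edgeR called 1 in non-VSD against NC myocardium at an adjusted p under 0.05, limma 0 and DESeq2 48, with 80 at an unadjusted p under 0.05 in edgeR. In the other tested comparisons edgeR and limma called 0, while DESeq2 called 0 (VSD against non-VSD myocardium), 6 (amniotic fluid) and 4 (serum), with 56, 29 and 30 at an unadjusted p under 0.05 in edgeR.

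The other settings kept each direction, with ranges of -1.54 to -1.01, 0.99 to 1.84, 1.63 to 2.15, -0.91 to -0.51, -0.66 to -0.50, -1.03 to -0.24 and 0.020 to 0.16 in the same order, and no tested comparison passed, with adjusted p of 0.0757 (DESeq2, non-VSD against NC myocardium) or more. Library totals in place of TMM raised the share of calls that were higher from 37.5% to 73.3% in VSD and from 42.1% to 80.0% in non-VSD against NC myocardium.

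With the replicate number as a block (replicate block) the values were -1.41, 1.09, 1.68, -0.72, -0.56, -1.03 and 0.086 and changed no call. The labels do not say whether samples with the same number share a dam. Same-numbered samples correlated at over 0.1 in 0 to 5 of 7 pairs per comparison. These correlations can neither show nor exclude a shared dam. Group mean levels moved by less than 1 SD under TMM or the authors' normalized values. The planned results for miR-185-3p and the ratio of the 2 strands were not run. Depth limits amniotic fluid, where 13 to 1080 counts stood behind each value.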
